A study of Mus musculus with 18 samples.

Results

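Cytochrome P450 family 2 was followed in mouse liver through every gene whose symbol begins with Cyp2, then a lower-case letter and a number, apart from Cyp2c70. This rule uses names and no measured value, and it chose 49 of the 24,539 genes listed. Subfamily Cyp2a has 4 members, Cyp2b 5, Cyp2c 15, Cyp2d 10, Cyp2e 1, Cyp2f 1 and Cyp2j 7, and 6 genes (Cyp2g1, Cyp2r1, Cyp2s1, Cyp2t4, Cyp2u1 and Cyp2w1) carry other letters. At least 1 read was counted for 43 members, and Cyp2b19, Cyp2b23, Cyp2c66, Cyp2j11, Cyp2j12 and Cyp2w1 had 0 reads in all 18 libraries.

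The study asked how a steatosis-inducing diet changes the translatome, the set of mRNAs carried by ribosomes, and what lycopene, the red carotenoid of tomatoes, adds. Wild-type male C57BL/6 mice aged 8 weeks were fed for 8 weeks, either normal chow (the control group), high-fat food (HFD) or the same food with lycopene (HFD+LYC), and livers were taken at 16 weeks of age, 3 per diet. Each of the 9 livers was split into a library of total poly(A) RNA, called mRNA here, and a second of RNA held in ribosome-nascent chain complexes (RNC), pelleted through sucrose from lysates treated with cycloheximide. The sources used here do not give the lycopene dose, and no mouse received lycopene without the high-fat diet. Whole livers were lysed, so fewer cells of a type and less RNA per cell cannot be told apart.

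Cytochromes P450 are heme enzymes that insert oxygen into a substrate, taking electrons from P450 oxidoreductase (Por) in the membrane of the endoplasmic reticulum. Family 2 is the main P450 family of liver, and its enzymes clear drugs and solvents, turn over steroids and convert arachidonic acid to epoxides. Many members are expressed by hepatocytes of one zone of the liver lobule or of one sex, and the nuclear receptors CAR (Nr1i3) and PXR (Nr1i2) induce several of them.

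Listed reads ran from 4533729 to 12742436 per library, and 3 reads stood for 0.19 to 0.62 CPM (read counts scaled to library size and by TMM). The mRNA libraries had a read for 34 to 42 members, the control and HFD RNC libraries for 32 to 38, and the HFD+LYC RNC libraries for 29 or 30. The last also stood apart over all genes, with a read for 8940 to 10037 genes against 13324 to 14450 in the other RNC libraries. TMM factors of these 3 libraries were 0.428, 1.15 and 0.836, and every value of them rests on that scaling. Hepatocyte markers (8 of 8 genes with reads) summed to 110135 to 425826 CPM in HFD+LYC RNC libraries, 66332 to 98743 with HFD and 88130.0 to 109799 CPM in controls, while the 4 kidney markers reached at most 0.318 CPM in any library. The part of these differences between libraries in the results below was not tested.

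All 49 members were found in the GRCm38.p6 annotation (Cyp2c44 by its RefSeq identifier). The Cyp2b genes (chr7:25897658-26772630), the Cyp2a genes (chr7:26307192-27036818) and Cyp2f2 (chr7:27119955-27133660) neighbour each other on chromosome 7. Cyp2e1 (chr7:140763819-140774990) lies farther along the same chromosome. The Cyp2d genes lie at chr15:82370527-82794452, the Cyp2c genes at chr19:39006940-44029256 and the Cyp2j genes at chr4:96042660-96664171. Many of these neighbours are near copies, which limits how a read can be given to 1 gene. Of the 46 members with a coding sequence, 26 shared more than 10% of their 50-base coding windows with another member, and 11, among them Cyp2e1, Cyp2f2, Cyp2c44, Cyp2c55 and Cyp2j9, shared none.

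Coding sequences of 3 pairs show the range. Cyp2a4 and Cyp2a5 differed at 23 of 1482 aligned bases (98.4% identity), Cyp2c67 and Cyp2c69 at 34 of 1473 (97.7%), and Cyp2b9 and Cyp2b13 at 107 of 1473 (92.7%). The following 60-base stretches are examples of places where a read would tell the pairs apart, with the bases that differ within each pair in capitals. Each lies inside 1 coding exon of the GENCODE transcript matched to the RefSeq identifier and is given on the gene's strand of GRCm38.p6. They lie at chr7:26307666-26307725 (plus strand) for Cyp2a4, chr7:26835811-26835870 (plus) for Cyp2a5, chr7:26200824-26200883 (plus) for Cyp2b9, chr7:26088336-26088395 (plus) for Cyp2b13, chr19:39643645-39643704 (minus) for Cyp2c67 and chr19:39881499-39881558 (minus) for Cyp2c69. The stretch holds 3 differences between Cyp2a4 and Cyp2a5, 13 between Cyp2b9 and Cyp2b13 and 5 between Cyp2c67 and Cyp2c69.
Cyp2a4: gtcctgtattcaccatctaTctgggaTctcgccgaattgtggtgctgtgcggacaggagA
Cyp2a5: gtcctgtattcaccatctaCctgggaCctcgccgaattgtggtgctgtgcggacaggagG
Cyp2b9: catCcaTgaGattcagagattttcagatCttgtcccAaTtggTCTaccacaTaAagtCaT
Cyp2b13: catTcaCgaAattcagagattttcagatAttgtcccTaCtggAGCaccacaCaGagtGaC
Cyp2c67: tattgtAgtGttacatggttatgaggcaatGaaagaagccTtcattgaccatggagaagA
Cyp2c69: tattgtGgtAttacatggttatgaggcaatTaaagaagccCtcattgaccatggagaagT
The sources used here do not say how a read that fits several genes was assigned, so counts of all 26 members above the 10% share are uncertain between copies. These include the Cyp2c40, Cyp2c67, Cyp2c68 and Cyp2c69 group (45.5 to 73.7% of windows shared), the Cyp2c37, Cyp2c50 and Cyp2c54 group (26.9 to 32.4%), Cyp2a4 and Cyp2a5 (38.2% each) and Cyp2a12 and Cyp2a22 (30.1% each). In Cyp2d they include Cyp2d10 (40.4%), Cyp2d11 (35.7%), Cyp2d9 (30.8%), Cyp2d40 (17.9%) and Cyp2d26 (174 of 1451 windows).

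In control mRNA the order per length was led by Cyp2e1, the enzyme that oxidises ethanol and acetone, at 1809 ± 899 CPM per kb (mean ± SD, n = 3, as for all levels here). The testosterone 16-alpha-hydroxylase Cyp2d9 followed at 782 ± 205, then Cyp2d10 at 502 ± 171, Cyp2d13 at 465 ± 255, Cyp2d26 at 436 ± 35.2 and Cyp2c50 at 434 ± 68.1 CPM per kb. From Cyp2d10 to Cyp2c50 the means lay within the spread of the livers. Cyp2f2, which activates naphthalene, had 313 ± 67.1, Cyp2a12 300.4 ± 119, the epoxygenase Cyp2c44 268 ± 85.4 and Cyp2c37 264 ± 42.7 CPM per kb, and these 4 also overlapped. The authors' RPKM values gave the same 10 genes in the same order. In other subfamilies the highest per length was Cyp2j5 with 96.0 ± 40.7, and among the other letters Cyp2r1, the vitamin D 25-hydroxylase, with 8.10 ± 3.60 CPM per kb, while no Cyp2b read was counted in control mRNA.

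Together the 49 members took 1.16% of listed reads in control mRNA (range 1.00 to 1.23%), 1.21% in HFD mRNA (1.08 to 1.34%) and 1.07% in HFD+LYC mRNA (0.855 to 1.27%). In RNC libraries the share was 1.15% in control (0.940 to 1.27%), 1.07% in HFD (0.978 to 1.25%) and 0.753% in HFD+LYC (0.686 to 0.858%). The shares of the 3 diets overlapped in mRNA. In RNC every HFD+LYC library lay below every library of the other diets on this scale, which uses listed reads and no TMM factor, whereas the summed TMM-scaled levels of HFD+LYC RNC, 6217 to 16054 CPM, overlapped the 8752 to 11855 CPM of control RNC.

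**Figure D1:**
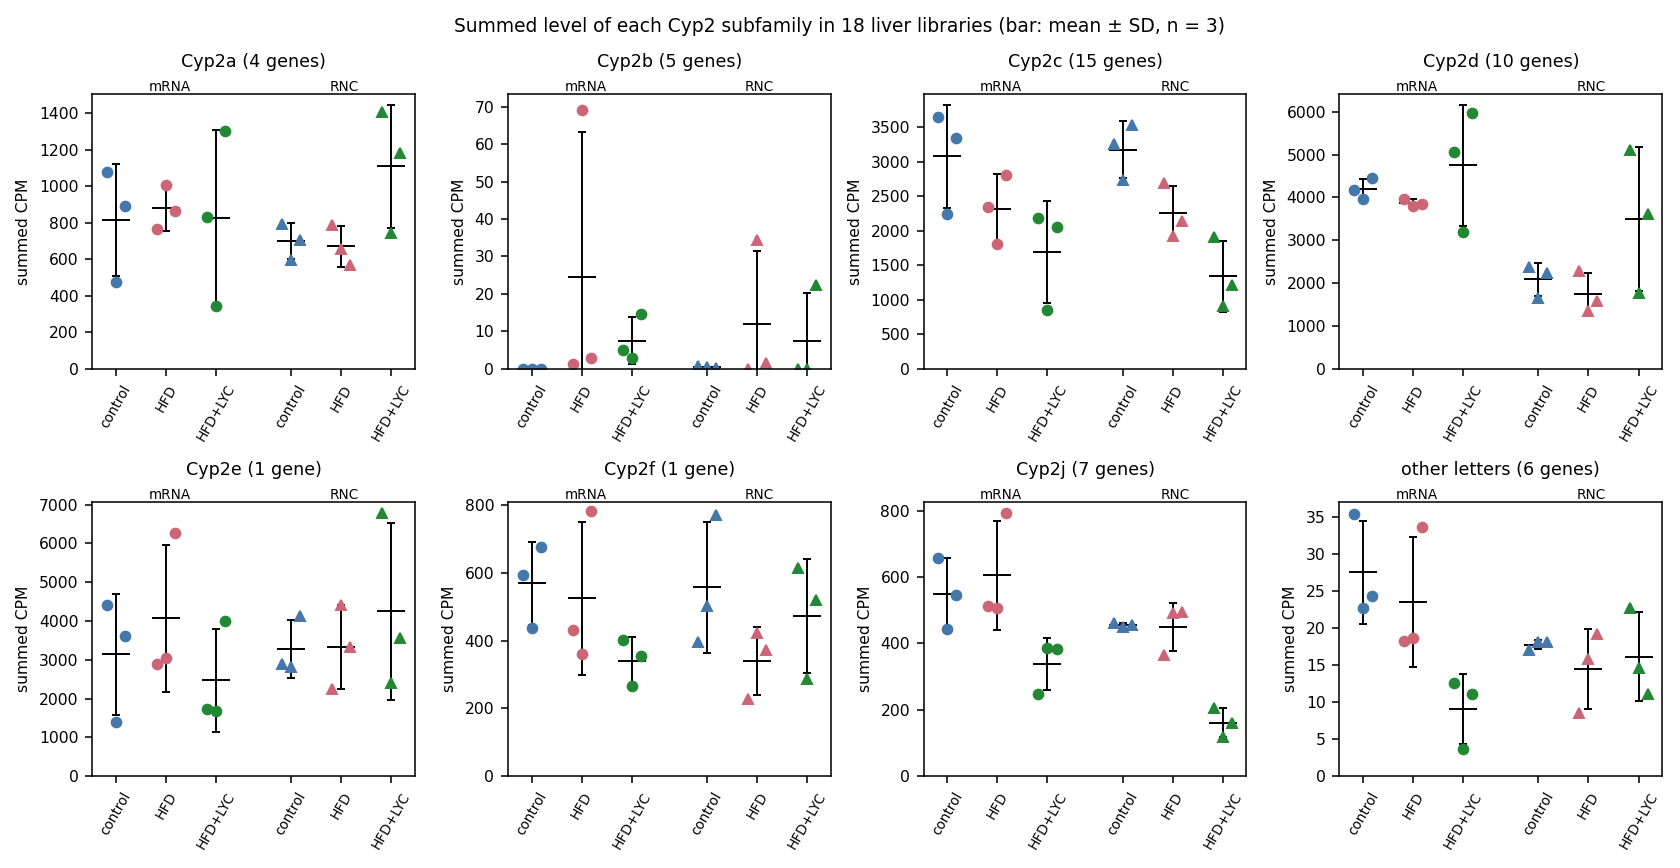
Summed CPM of each subfamily in each library (points: 1 liver each, bars: mean ± SD, n = 3), by diet and library kind, with mRNA and RNC libraries scaled apart. Cyp2c and Cyp2j sums of HFD+LYC RNC libraries lie below all other RNC libraries, and the Cyp2b sum of HFD liver 2 stands above the rest.

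The test across all genes was edgeR's quasi-likelihood test with Benjamini-Hochberg adjustment, and a member was called at an adjusted p under 0.05. It kept 32 members in mRNA and 31 in RNC. In mRNA 20 of 32 members lay below 0 in each diet comparison (62.5%), against 50.9% of all genes for HFD against control, 51.9% for HFD+LYC against HFD and 52.3% for HFD+LYC against control. In RNC 23 of 31 (74.2%, against 48.8%), 14 (45.2%, against 58%) and 17 (54.8%, against 57.7%) did so, which became 17, 25 and 23 with library-size scaling. Under that scaling the median of all genes lay at 0.12, -0.87 and -0.74 on the log2 scale. HFD against control called no member in mRNA, where 0.0158% of all 12,664 tested genes were called higher and 0% lower. At an unadjusted p under 0.05 there were 6 members (18.8% of 32, against 2.83% of all genes), and DESeq2 and limma-voom also called 0. In RNC it called no member either, beside 0.00858% of the 11,660 tested genes higher and 0% lower. Here 6 members had an unadjusted p under 0.05 (19.4% of 31, against 1.84% of all genes), limma-voom called 0 and DESeq2 called 2, Cyp2c38 and Cyp2c69. Of all 11,660 genes DESeq2 called 28 higher and 5 lower. Groups without overlap were seen in mRNA for 4 members higher with HFD (12.5%, against 3.76% of all genes) and 3 lower (9.38%, against 3.46%), and in RNC for 1 higher (3.23%, against 6.97%) and 5 lower (16.1%, against 7.2%).

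HFD+LYC against HFD, which shares its HFD livers with the comparison above, called no member in mRNA, beside 1.99% of all genes higher and 0.916% lower. There 8 of 32 members (25%) had an unadjusted p under 0.05, near the 24.3% of all genes, DESeq2 called 5, limma-voom 1, and without HFD+LYC mRNA replicate 3 edgeR called 1. With the replicate number as a block, 6 were called (Cyp2b10, Cyp2c29, Cyp2c55, Cyp2c67, Cyp2j5 and Cyp2u1). Calls over all 12,664 genes also rose, from 252 higher and 116 lower in the main fit to 852 and 605 with the block. DESeq2 called 871 and 620 of them. Same-numbered HFD and HFD+LYC mRNA libraries deviated together, but no label links animals of different diets. The block also covers control livers, whose mRNA replicate 1 deviated against that of HFD (residual r = -0.596), while replicates 2 and 3 deviated with it (0.464 and 0.448). No overlap was seen for 2 members higher (6.25%, against 16.7% of all genes) and 8 lower (25%, against 15.2%). HFD+LYC against control called Cyp2b10 higher and Cyp2c55 and Cyp2c69 lower in mRNA, 3.12% and 6.25% of members beside 3.31% and 2.23% of all genes. There 10 members (31.2%) had an unadjusted p under 0.05, against 23.9% of all genes, 2 members lay higher without overlap (6.25%, against 14.3% of all genes) and 7 lower (21.9%, against 13.7%).

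In RNC the contrast of HFD+LYC and HFD called 3 members higher (9.68%) and 4 lower (12.9%), against 9.34% and 17.4% of all genes. HFD+LYC against control called 3 higher (9.68%) and 6 lower (19.4%), against 9.23% and 17.1%. No overlap was seen for 4 members higher (12.9%, against 13.3%) and 5 lower (16.1%, against 28.1%) beside HFD, and for 4 higher (12.9%, against 14.1%) and 10 lower (32.3%, against 30.6%) beside control. Both called shares are near those of all genes, so the counts say nothing particular about the family. Without HFD RNC replicate 2 or 3 the count of calls against HFD was 4, beside 647 genes higher and 1533 lower, or 593 and 1514. The members that rose were Cyp2a5, Cyp2d26 and Cyp2d40 in both comparisons. Those that fell in both were Cyp2c50, Cyp2j5 and Cyp2j6, with Cyp2c38 against HFD alone and Cyp2c37, Cyp2c67 and Cyp2c69 against control alone, where the difference between the comparisons was not tested. The split depends on scaling. With library size alone, the median gene moved from -0.29 to -0.87 (log2) against HFD and from -0.28 to -0.74 against control. Then 0 members were called higher, with 8 lower against HFD and 9 against control. Of all 11,660 genes that scaling called 324 higher and 2347 lower against HFD, where the main fit called 1089 and 2031. Against control it called 377 and 2122, where the main fit called 1076 and 1996.

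**Figure D2:**
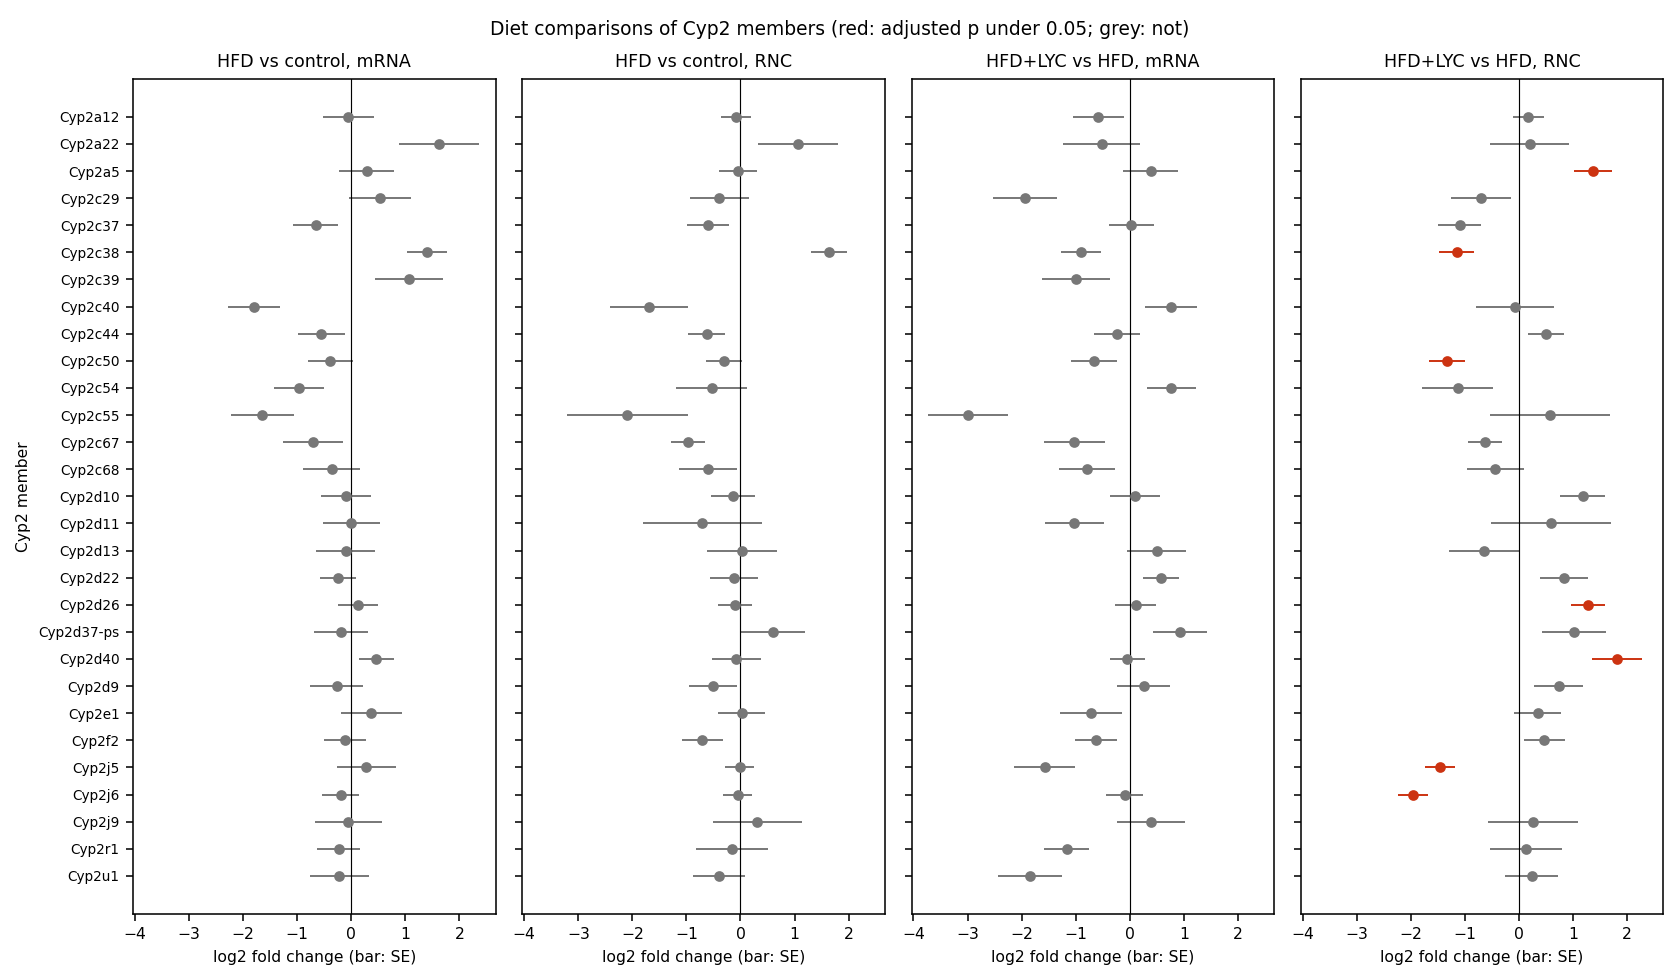
Log2 fold change (x axis) of each tested member in HFD against control and in HFD+LYC against HFD, mRNA and RNC, with SE bars from the edgeR fit and called members in red; Cyp2a4, Cyp2b9, Cyp2b10 and Cyp2c69 are left out because a group of theirs had few or no reads. In RNC with HFD+LYC, Cyp2c38, Cyp2c50, Cyp2j5 and Cyp2j6 are red below 0 and Cyp2a5, Cyp2d26 and Cyp2d40 red above 0.

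**Figure D3:**
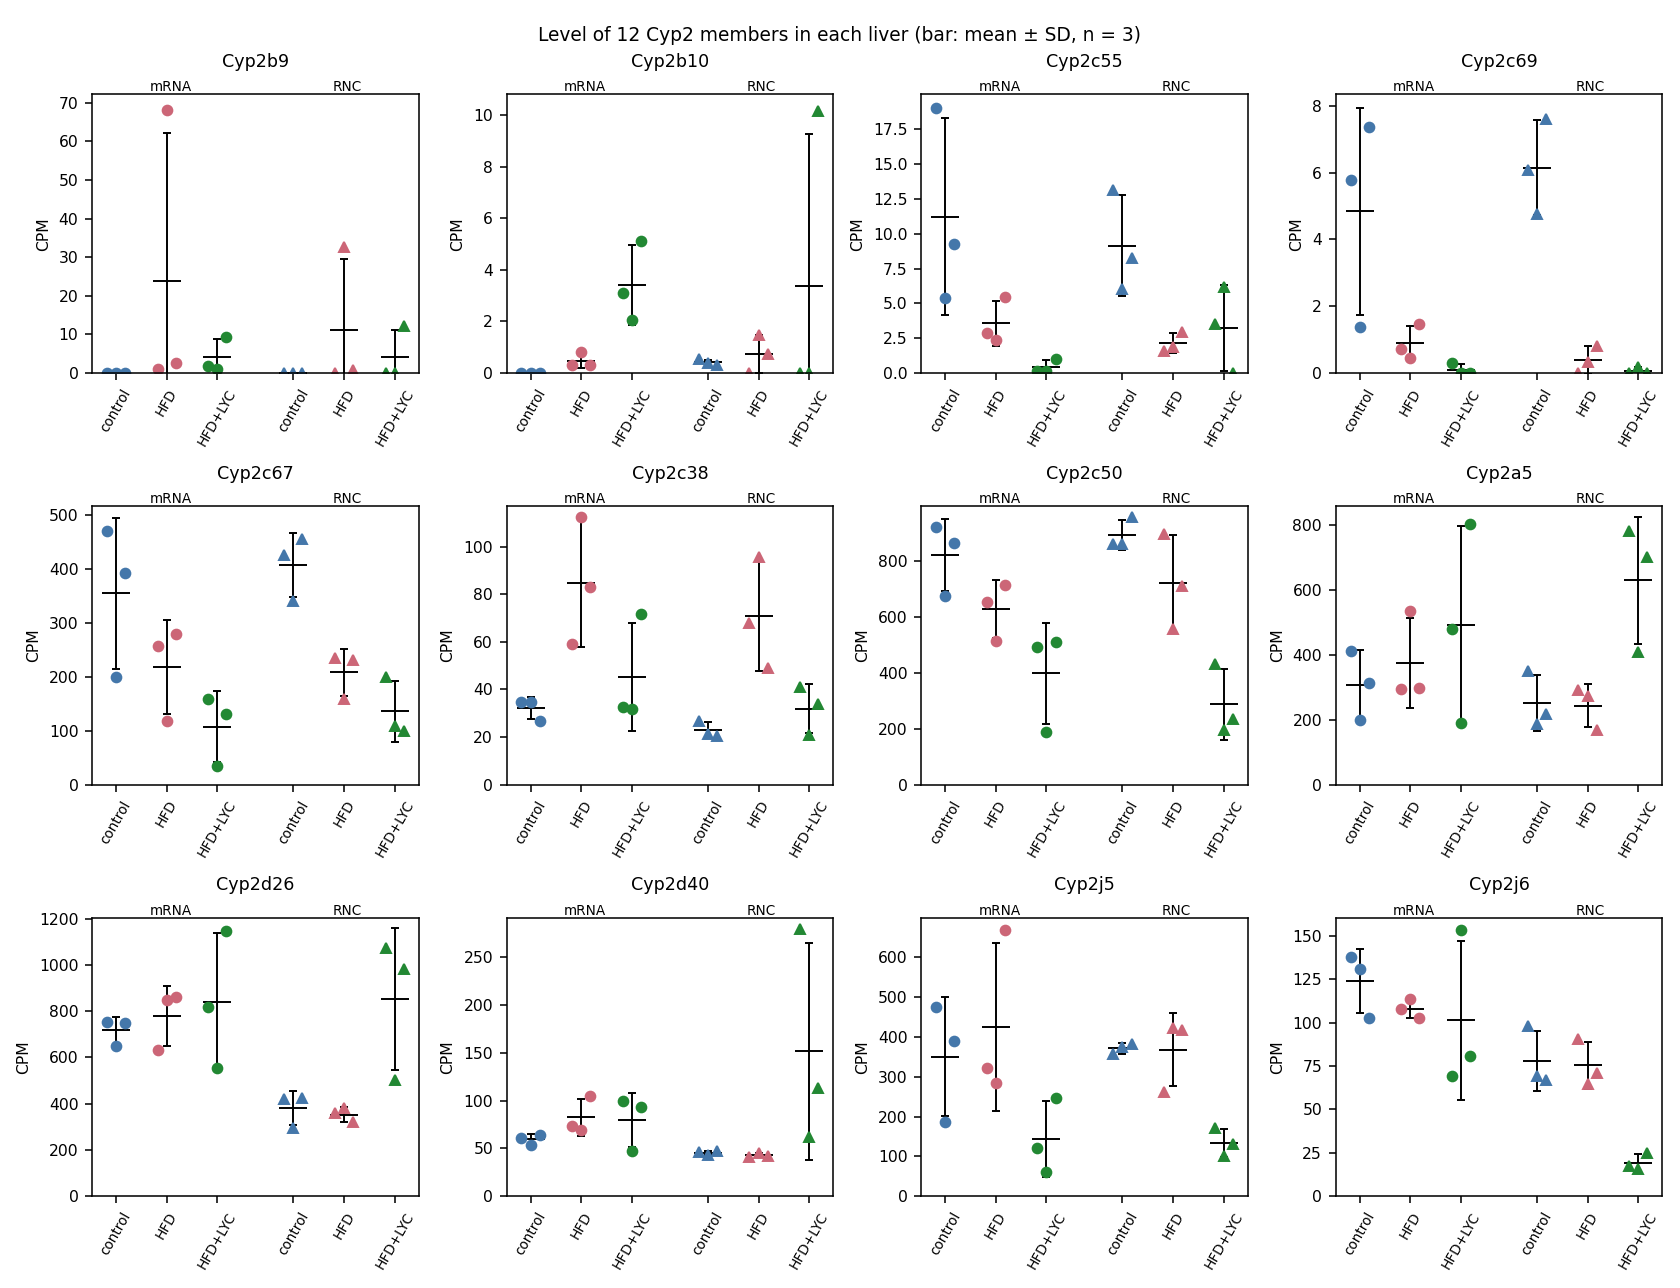
CPM of 12 members in each library (points: 1 liver each, circles mRNA, triangles RNC; bars: mean ± SD, n = 3, bars reaching below 0 are drawn to 0), by diet, with mRNA and RNC scaled apart. Cyp2b9 is high in HFD liver 2 alone. Among the RNC libraries, Cyp2j5 and Cyp2j6 are lowest with HFD+LYC, and Cyp2a5, Cyp2d26 and Cyp2d40 are highest with HFD+LYC.

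In the Cyp2b subfamily reads appeared with the high-fat diet where control mRNA had none. Cyp2b9, a female-biased steroid hydroxylase in mice, had 0, 0 and 0 reads in control livers, 9, 598 and 27 with HFD and 13, 7 and 77 with HFD+LYC. All 6 livers on the high-fat diet had reads and no control liver did, and HFD liver 2 held 598 of the 634 HFD reads. Over the group the mRNA level was at least 168-fold higher with HFD than the floor of 3 reads over the control group, and at least 13.8-fold without HFD liver 2. HFD+LYC mRNA was at least 32.9-fold above that floor. In RNC Cyp2b9 had 1, 0 and 0 reads in control livers, 0, 514 and 12 with HFD and 0, 0 and 91 with HFD+LYC, so both libraries of HFD liver 2 were high. None of these differences passed the adjusted threshold (edgeR adjusted p = 0.754 for HFD against control mRNA).

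Cyp2b13, the nearest relative of Cyp2b9 and also female-biased, had 2 reads in HFD mRNA liver 2, 1 in HFD+LYC mRNA liver 3, 7 in HFD RNC liver 2 and 0 elsewhere. The 120 bases before the RefSeq starts of Cyp2b9 and Cyp2b13 are identical (0 edits), and the 300-base promoter windows differ by 2 edits. Cyp2b10 differs from Cyp2b9 by 31 edits over the 120 bases. The sequences, from RefSeq starts on GRCm38.p6, plus strand, are shown because levels of the genes differ while the sequence next to the RefSeq start does not. The gene annotation behind the positions given above starts Cyp2b9 at base 26173350 and Cyp2b13 at 26061388, inside the stretches shown. The sequences cover chr7:26173289-26173408 for Cyp2b9, chr7:26061375-26061494 for Cyp2b13 and chr7:25897538-25897657 for Cyp2b10, and are in lower case throughout since no TATAAA was found in them.
Cyp2b9: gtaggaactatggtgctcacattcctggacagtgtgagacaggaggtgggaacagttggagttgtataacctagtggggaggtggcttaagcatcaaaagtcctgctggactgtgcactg
Cyp2b13: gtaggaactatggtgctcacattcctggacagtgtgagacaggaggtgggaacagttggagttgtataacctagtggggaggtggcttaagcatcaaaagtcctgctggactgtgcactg
Cyp2b10: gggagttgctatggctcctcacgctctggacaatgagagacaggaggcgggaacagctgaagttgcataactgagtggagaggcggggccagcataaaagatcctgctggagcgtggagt

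Cyp2b10, the classic target gene of CAR, had 0, 0 and 0 reads in control livers, 3, 7 and 3 with HFD and 21, 15 and 42 with HFD+LYC. No control liver had a read, each HFD liver had a few, and each HFD+LYC liver had more than any HFD liver. The level was at least 3.45-fold above the control floor with HFD and at least 26.5-fold with HFD+LYC. The difference between HFD+LYC and control passed (edgeR adjusted p = 0.00819), as it did under every alternative run (6.78e-06 to 0.0424). HFD+LYC against HFD gave 2.85 ± 0.67 (SE; edgeR adjusted p = 0.0547), and 0.044 with the replicate block. In RNC its reads were 6, 5 and 4 in control, 0, 23 and 11 with HFD and 0, 0 and 76 with HFD+LYC, so there 2 of 3 HFD+LYC libraries had none.

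Other markers of female liver were counted beside Cyp2b9. The 10-gene list without Cyp2 members summed to 10.5 to 75.4 CPM in control mRNA, 127 to 502 with HFD and 209 to 553 in HFD+LYC, and Cyp4a14, which also responds to fatty acids, made up most of it with means of 29.4, 294.0 and 280.9 CPM. Of the 10 genes, 4 were tested, and HFD against control called 0 of them in mRNA (4 at an unadjusted p under 0.05), HFD+LYC against control 2 higher (50%, against 3.31% of all genes). With HFD the mRNA sum was 127, 399 and 502 CPM, highest in liver 3, whereas Cyp2b9 was highest in liver 2. In HFD+LYC mRNA both were highest in liver 3. In HFD RNC the sum was 93.7, 643 and 312 CPM, highest in liver 2 as for Cyp2b9. In HFD+LYC RNC it was 102, 237 and 183 CPM, highest in liver 2, whereas Cyp2b9 reads came from liver 3 alone. HFD against control called 0 of the 4 tested genes in RNC, with 4 higher without overlap. HFD+LYC against control called 3 of 4 higher in RNC (75%, against 9.23% of all genes). The defining genes Sult2a1 and Sult3a1 were at 0 in all 9 mRNA libraries. The part of these genes in the Cyp2b result was not tested.

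Cyp2c, the largest subfamily, holds epoxygenases and steroid hydroxylases, and its summed level was lowest in RNC of HFD+LYC livers. The sum in mRNA was 3650.4, 2236 and 3349 CPM in control, 2338, 1811 and 2809 with HFD and 2186, 848 and 2054 with HFD+LYC. In RNC it was 3261, 2728 and 3534 CPM in control, 2694, 1929 and 2139 with HFD and 1902, 903 and 1209 with HFD+LYC. The control and HFD ranges overlapped in mRNA and did not in RNC, and all 3 HFD+LYC RNC sums lay below all other RNC sums. In HFD against control 9 of 12 tested Cyp2c members were below 0 in mRNA and 10 of 11 in RNC, with a median log2 fold change of -0.60 in both, beside 50.9% and 48.8% of all genes and medians of -0.01 and 0.01. None of these was called, and the directions were the same under all 3 scalings.

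Cyp2c38, an epoxygenase, lay above control with HFD. It had 34.8, 34.9 and 26.8 CPM in control livers, 59.0, 112 and 83.0 with HFD and 32.4, 31.8 and 71.6 with HFD+LYC, and in RNC 26.8, 21.5 and 20.5 CPM in control livers, 68.1, 95.7 and 49.1 with HFD and 41.0, 20.9 and 34.0 with HFD+LYC. All HFD values lay above all control values in both kinds of library. The log2 fold change with HFD was 1.40 ± 0.37 (SE; edgeR adjusted p = 0.754) in mRNA and 1.63 ± 0.33 (SE; edgeR adjusted p = 0.705) in RNC, not called. In RNC it fell with HFD+LYC against HFD by 1.15 ± 0.33 on the log2 scale (edgeR adjusted p = 0.0276), with no overlap. Without HFD RNC replicate 1 or 2 this adjusted p was 0.053 or 0.117. The call was also lost with the replicate block and with only the compared groups fitted. The annotated Cyp2c38 overlaps Cyp2c39 (165 reads over the 18 libraries), and the sources used here do not give the strand setting of the counting.

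Cyp2c40, which hydroxylates arachidonic acid, had 25.2, 13.6 and 25.6 CPM in control livers, 8.37, 3.87 and 6.22 with HFD and 16.7, 3.80 and 11.1 with HFD+LYC. Every HFD liver was below every control liver, and the HFD+LYC livers spread across both. The log2 fold change with HFD was -1.80 ± 0.49 (SE; edgeR adjusted p = 0.754) in mRNA and -1.69 ± 0.73 (SE; edgeR adjusted p = 1) in RNC. Its near copy Cyp2c69 had 5.78, 1.38 and 7.36 CPM in control livers, 0.723, 0.455 and 1.48 with HFD and 0.295, 0 and 0 with HFD+LYC, and in RNC 6.08, 4.77 and 7.61 CPM in control livers, 0, 0.316 and 0.821 with HFD and 0, 0.192 and 0 with HFD+LYC. The last group held 2 reads in mRNA against 112 in control, a ratio of 55.0 (95% counting interval 14.9 to 460), and 1 against 227 in RNC, a ratio of 108 (19.2 to 4284). It fell in both (edgeR adjusted p = 0.0139 and 0.00981), and the mRNA call was lost without control replicate 3 (adjusted p = 0.073) or HFD+LYC replicate 2 (0.0515).

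Cyp2c55, an arachidonic acid oxidase also found in the gut, had 19.0, 5.37 and 9.27 CPM in control livers, 2.89, 2.39 and 5.43 with HFD and 0.147, 0.136 and 0.975 with HFD+LYC. The 3 diets formed separate ranges from control down to HFD+LYC except that the highest HFD liver overlapped the lowest control liver. It fell with HFD+LYC against control by 4.63 ± 0.74 on the log2 scale (edgeR adjusted p = 0.00742), also under every alternative run. Against HFD the value was -2.99 ± 0.74 (SE; edgeR adjusted p = 0.0547), and 0.0371 without HFD+LYC replicate 3. In RNC the levels were 13.1, 6.04 and 8.23 CPM in control livers, 1.59, 1.84 and 2.94 with HFD and 3.52, 6.14 and 0 with HFD+LYC, where the HFD+LYC libraries spread from 0 reads to the control level.

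The abundant copies Cyp2c67, Cyp2c50 and Cyp2c37 fell in RNC with HFD+LYC against control. Cyp2c67 had 426, 341 and 456 CPM in control livers, 235, 158 and 231 with HFD and 200.3, 108 and 98.7 with HFD+LYC in RNC, and 470.3, 200.0 and 393 CPM in control livers, 257, 119 and 279 with HFD and 158, 33.7 and 130.4 with HFD+LYC in mRNA. Control RNC libraries were above all HFD and HFD+LYC libraries. It fell in RNC with HFD+LYC against control by 1.59 ± 0.32 (log2; edgeR adjusted p = 0.00616). Cyp2c50, an arachidonic acid epoxygenase, had 861, 862 and 957 CPM in control livers, 899, 558 and 709 with HFD and 433, 196 and 233 with HFD+LYC in RNC. All HFD+LYC libraries were below all others, and it fell by 1.64 ± 0.34 against control (adjusted p = 0.00674) and 1.33 ± 0.34 against HFD (adjusted p = 0.0159, and 0.0503 without HFD RNC replicate 1). Its call against HFD was also lost with only the compared groups fitted. Cyp2c37, another arachidonic acid oxidase, had 569, 367 and 422 CPM in control livers, 411, 236 and 247 with HFD and 224, 88.6 and 105 with HFD+LYC in RNC and fell against control by 1.70 ± 0.40 (adjusted p = 0.0118). The control calls of these 3 genes held under every alternative run, library-size scaling included.

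Cyp2c29, a pericentral epoxygenase, had 313, 112 and 362 CPM in control livers, 153, 266 and 711 with HFD and 78.3, 84.9 and 132 with HFD+LYC. HFD+LYC livers were below all HFD livers and HFD liver 3 was the highest, and the log2 fold change against HFD was -1.94 ± 0.59 (SE; edgeR adjusted p = 0.0913), or 0.0305 with the replicate block. Cyp2c54 had 457, 379 and 422 CPM in control livers, 321, 123 and 199 with HFD and 544, 179 and 375 with HFD+LYC, with control above all HFD livers (log2 fold change -0.97 ± 0.46, edgeR adjusted p = 1). In RNC the differences of Cyp2c54 and Cyp2c40 between HFD+LYC and control passed without HFD+LYC replicate 1 (adjusted p = 0.019 and 0.0437), and with all libraries they did not (adjusted p = 0.099 and 0.111). Cyp2c68 had 303, 246 and 296 CPM in control livers, 188, 191 and 177 with HFD and 226, 31.5 and 155 with HFD+LYC in RNC, where control lay above both other diets. Cyp2c44, which makes epoxides in liver and vessels, had 362, 242 and 379 CPM in control livers, 290.2, 116 and 231 with HFD and 318, 292 and 293 with HFD+LYC in RNC. HFD+LYC was above HFD there without overlap, yet the log2 fold change of 0.50 ± 0.34 (SE; edgeR adjusted p = 0.322) was not called and changed sign with library-size scaling, to -0.07 (adjusted p = 0.932). Pericentral hepatocyte markers without Cyp2 members (10 genes) summed to 3242 to 4489 CPM in control, 3410.3 to 4234 with HFD and 1494 to 3553 with HFD+LYC in mRNA, and the 9 periportal markers to 4499 to 6201, 3997 to 7062 and 9991 to 10499 CPM. The largest part of the periportal sum with HFD+LYC was Pck1, with means of 1209, 1363 and 4519 CPM, and of the 9 genes 4 lay above and 5 below 0 for HFD+LYC against control (1 called higher, 1 lower, median log2 fold change -0.01). In RNC the pericentral sums were 2250.3 to 3142 CPM in control, 2134 to 3066 with HFD and 1046 to 2215 with HFD+LYC, where 3 of 10 genes were called lower against either diet (30%, against 17.1% of all genes beside control and 17.4% beside HFD). The periportal RNC sums were 4011 to 5290.1, 2485 to 4202 and 3251 to 4967 CPM. Their part in the Cyp2c values was not tested.

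In the Cyp2a subfamily Cyp2a5, the coumarin 7-hydroxylase, rose in RNC of HFD+LYC livers. Its RNC levels were 349.7, 187 and 218 CPM in control livers, 289.7, 271 and 169 with HFD and 779, 407 and 699 with HFD+LYC, with all HFD+LYC libraries above all others. The log2 fold change was 1.37 ± 0.36 (SE; edgeR adjusted p = 0.0183) against HFD and 1.32 ± 0.36 (SE; edgeR adjusted p = 0.022) against control. With library-size scaling these became 0.64 (adjusted p = 0.271) and 0.70 (adjusted p = 0.244). The calls were also lost without HFD RNC replicate 2 (0.0532) or 3 (0.0871), and without control RNC replicate 2 (0.102) or 3 (0.0977). With only the compared groups fitted, the call against control was lost and that against HFD held. In mRNA Cyp2a5 had 412, 197 and 313 CPM in control livers, 294, 533 and 296 with HFD and 479, 188 and 801 with HFD+LYC, and the diets overlapped.

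Cyp2a4, a female-biased testosterone 15-alpha-hydroxylase, followed HFD liver 2. It had 1, 0 and 2 reads in control livers, 0, 67 and 6 with HFD and 2, 1 and 23 with HFD+LYC, and in RNC 4, 0 and 2 reads in control livers, 7, 138 and 3 with HFD and 0, 12 and 34 with HFD+LYC. HFD liver 2 was the highest in both kinds of library and HFD+LYC liver 3 the next. The HFD group had 73 mRNA reads against 3 in control, a ratio of 19.4 (95% counting interval 6.37 to 96.1), and 67 of those 73 reads came from 1 liver. Cyp2a22, a near copy of Cyp2a12, had 47.7 CPM in mRNA of HFD liver 2 and 3.45 to 28.6 CPM in the other livers, of which HFD+LYC liver 3 was the highest. Cyp2a12 itself, a steroid hydroxylase, had 654, 276 and 569.8 CPM in control livers, 465, 422 and 557 with HFD and 348, 142 and 473 with HFD+LYC, with full overlap. The sequences before the starts of Cyp2a4 (chr7:26307072-26307191, plus strand) and Cyp2a5 (chr7:26835219-26835338, plus) differ by 4 edits in 120 bases, with the TATAAA in capitals, and Cyp2e1 (chr7:140763699-140763818, plus), which belongs to another subfamily, is shown with them.
Cyp2a4: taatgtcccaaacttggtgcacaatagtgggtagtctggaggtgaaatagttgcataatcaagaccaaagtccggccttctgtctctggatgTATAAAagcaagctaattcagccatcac
Cyp2a5: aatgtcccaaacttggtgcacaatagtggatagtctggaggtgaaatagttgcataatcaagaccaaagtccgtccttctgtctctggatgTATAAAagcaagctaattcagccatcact
Cyp2e1: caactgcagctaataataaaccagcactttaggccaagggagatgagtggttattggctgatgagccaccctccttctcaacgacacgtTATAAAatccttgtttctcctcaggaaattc
The hexamer begins 28, 29 and 31 bases before the start in the 3 genes. On either strand TATAAA occurred in 20 of 41 promoter windows of 39 members (48.8%), against 13.6% of 32851 RefSeq promoter windows of 300 bases. TTCNNNGAA, the STAT5 motif, occurred in 2 of 41 (4.88%, against 8.30%), and the direct repeats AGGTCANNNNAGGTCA and AGTTCANNNNAGTTCA in none (0.0152% and 0.0122% of all windows).

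The Cyp2d genes on chromosome 15, relatives of the human debrisoquine hydroxylase, summed to 4177, 3961 and 4446 CPM in control, 3965, 3798 and 3848 with HFD and 5060.3, 3203 and 5977 with HFD+LYC in mRNA. Control and HFD overlapped, and HFD+LYC spread around both. Cyp2d9, which is male-biased, had 1571, 914 and 1388 CPM in control livers, 1094, 762 and 1358 with HFD and 1364, 519.9 and 1957 with HFD+LYC, with no member of this subfamily called in any mRNA comparison. Male-biased liver markers without Cyp2 members (11 genes) summed to 6336 to 16932 CPM in control, 6613 to 22051 with HFD and 2337 to 8217 with HFD+LYC in mRNA.

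Cyp2d26 and Cyp2d40 rose in RNC with HFD+LYC. Cyp2d26 had 421, 295 and 423 CPM in control livers, 359.9, 381 and 319 with HFD and 1076, 504 and 984 with HFD+LYC in RNC, with all HFD+LYC libraries on top. Its log2 fold change was 1.27 ± 0.32 (SE; edgeR adjusted p = 0.0146) against HFD and 1.17 ± 0.32 (SE; edgeR adjusted p = 0.0218) against control. Cyp2d40 had 45.9, 42.8 and 47.3 CPM in control livers, 41.1, 45.6 and 42.4 with HFD and 279, 62.3 and 113 with HFD+LYC in RNC, where control and HFD libraries lay close together and HFD+LYC replicate 1 far above. Its log2 fold change was 1.82 ± 0.46 (SE; edgeR adjusted p = 0.0157) against HFD and 1.74 ± 0.46 (SE; edgeR adjusted p = 0.0193) against control. With library-size scaling the values against HFD became 0.53 (adjusted p = 0.261) for Cyp2d26 and 0.87 (adjusted p = 0.0742) for Cyp2d40.

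With only the compared groups fitted, the calls of Cyp2d26 and Cyp2d40 in RNC were lost, both against HFD and against control. Single control or HFD libraries also decided these Cyp2d calls. Without HFD RNC replicate 3 the adjusted p of Cyp2d26 against HFD was 0.0721. Against control it was 0.0581, 0.105 or 0.0626 without control RNC replicate 1, 2 or 3 and 0.0522 without HFD+LYC RNC replicate 3. For Cyp2d40 it was 0.0579, 0.0564 or 0.0643 against HFD without HFD RNC replicate 1, 2 or 3, and 0.0673, 0.0782 or 0.068 against control without control RNC replicate 1, 2 or 3. In mRNA Cyp2d40 had 61.1, 54.0 and 64.0 CPM in control livers, 73.9, 68.9 and 105 with HFD and 99.2, 47.7 and 93.1 with HFD+LYC, with HFD above control and no call (log2 fold change 0.47 ± 0.33, edgeR adjusted p = 1).

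Cyp2e1 and Cyp2f2, each alone in its subfamily here, were called in no comparison of diets. Cyp2e1 had 4414, 1399.8 and 3610.2 CPM in control livers, 2901, 3034 and 6259 with HFD and 1728, 1688 and 4004 with HFD+LYC, and in RNC 2890.4, 2809.7 and 4128 CPM in control livers, 2239, 4417 and 3340.1 with HFD and 6789, 2390.0 and 3555 with HFD+LYC. The 3 diets overlapped fully in both kinds of library, and the log2 fold change with HFD in mRNA was 0.37 ± 0.57 (SE; edgeR adjusted p = 1). Cyp2f2, a periportal enzyme, had 594, 436 and 677 CPM in control livers, 433, 359.6 and 782 with HFD and 401, 265 and 355 with HFD+LYC. All HFD+LYC livers were below all control livers in these mRNA levels, and the log2 fold change against control was -0.74 ± 0.39 (SE; edgeR adjusted p = 0.273). In RNC the log2 fold change of Cyp2f2 with HFD+LYC was -0.23 against control and 0.47 against HFD.

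In the Cyp2j subfamily Cyp2j5 and Cyp2j6 fell in RNC with HFD+LYC, and these calls held under every alternative run. Cyp2j5, the main arachidonic acid epoxygenase of this subfamily in mouse liver and kidney, had 356, 375 and 382 CPM in control livers, 262, 422 and 418 with HFD and 171, 101 and 130.0 with HFD+LYC in RNC. The HFD+LYC libraries were below all others, by 1.45 ± 0.28 on the log2 scale against HFD (edgeR adjusted p = 0.00492) and 1.47 ± 0.28 against control (adjusted p = 0.00495). In mRNA it had 475, 186 and 390.0 CPM in control livers, 322, 284 and 668 with HFD and 122, 59.9 and 247 with HFD+LYC, with HFD+LYC below HFD (log2 fold change -1.57 ± 0.56, edgeR adjusted p = 0.126, and 0.0181 with the replicate block).

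Cyp2j6, a relative of Cyp2j5 found in liver and intestine, had 98.1, 69.1 and 67.0 CPM in control livers, 90.4, 64.7 and 71.1 with HFD and 17.6, 15.7 and 24.8 with HFD+LYC in RNC. Control and HFD libraries overlapped and HFD+LYC libraries were below both. It fell by 1.96 ± 0.28 against HFD (log2; edgeR adjusted p = 0.00138) and 2.01 ± 0.28 against control (adjusted p = 0.00115). In mRNA Cyp2j6 had 138, 131 and 103 CPM in control livers, 108, 113 and 103 with HFD and 69.4, 154 and 80.9 with HFD+LYC, and the HFD+LYC livers fell on both sides of the others. Of the other Cyp2j genes only Cyp2j9 was tested, and Cyp2j8 and Cyp2j13 had 50 and 1 reads over the 18 libraries.

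Among the other letters, Cyp2u1, a fatty acid omega-hydroxylase, had 14.6, 11.7 and 13.2 CPM in control livers, 7.54, 9.22 and 17.1 with HFD and 6.04, 0.543 and 2.93 with HFD+LYC. HFD+LYC was below both other diets, with log2 fold changes of -1.84 ± 0.59 (SE; edgeR adjusted p = 0.0999) against HFD and -2.06 ± 0.59 (SE; edgeR adjusted p = 0.0654) against control. The second passed without HFD+LYC mRNA replicate 1 (adjusted p = 0.0485), and the first with the replicate block (0.0418). Cyp2r1 had 20.0, 9.37 and 10.3 CPM in control livers, 9.71, 8.08 and 15.8 with HFD and 4.86, 3.12 and 6.95 with HFD+LYC, again with HFD+LYC lowest (log2 fold change -1.16 ± 0.42, edgeR adjusted p = 0.128 against HFD). These values of Cyp2u1 and Cyp2r1 are from mRNA. In RNC both genes lay above 0 for HFD+LYC against HFD (median log2 fold change 0.19) and below 0 against control (median -0.09), and neither was called. Cyp2g1, Cyp2s1 and Cyp2t4 had 77, 32 and 8 reads over the 18 libraries and were not tested.

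RNC and mRNA libraries of the same control livers were then compared, in a fit over all 18 libraries. This fit has no term for the liver, so the paired libraries of a liver enter as independent. It kept 33 members. Of these, 27 lay higher in RNC (81.8%, against 47.6% of 12,872 genes), a count that became 17 with library-size scaling, where the median gene shifted from -0.07 to -0.80; relative to the median gene it was 28 and 29. All 12 tested Cyp2c members lay above 0 with the main scaling. Groups without overlap were seen for 15 members higher in RNC (45.5%, against 25.2%) and 4 lower (12.1%, against 28.3%). The only call was Cyp2d37-ps, lower in RNC, beside 0.0155% of genes called higher and 2.11% lower.

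**Figure D4:**
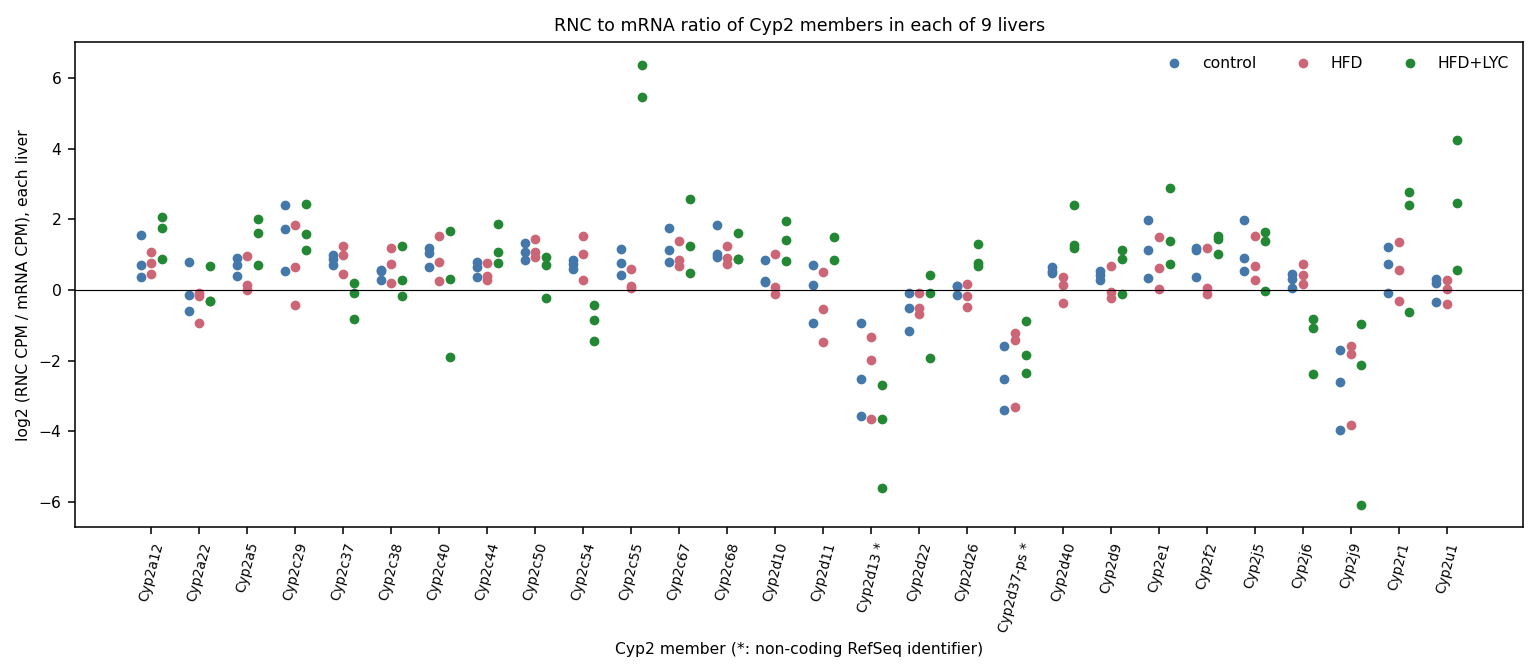
Log2 ratio of RNC to mRNA level in each liver (y axis, 0 marks a ratio of 1), coloured by diet, for members with a ratio in at least 8 of 9 livers; an asterisk marks genes whose RefSeq identifier is non-coding. Cyp2d13, Cyp2d37-ps and Cyp2j9 lie below 1 in all 9 livers, and Cyp2e1, Cyp2a12, Cyp2c44, Cyp2c67 and Cyp2c68 above 1 in all 9. Where 1 lies is set by the TMM scaling of the 18 libraries.

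The members poorest in RNC were Cyp2d13, Cyp2d37-ps and Cyp2j9. RefSeq lists Cyp2d13 and Cyp2d37-ps as non-coding (with Cyp2c53-ps, which was not tested), whereas Cyp2j9 is protein-coding. The ratio of RNC to mRNA level of Cyp2d13 was 0.527, 0.0847 and 0.175 in control livers, 0.255, 0.0793 and 0.397 with HFD and 0.0790, 0.0205 and 0.154 with HFD+LYC. That of Cyp2d37-ps was 0.331, 0.0939 and 0.175 in control livers, 0.429, 0.101 and 0.377 with HFD and 0.278, 0.197 and 0.548 with HFD+LYC. That of Cyp2j9 was 0.309, 0.0645 and 0.165 in control livers, 0.286, 0.0712 and 0.333 with HFD and 0.509, 0.0146 and 0.229 with HFD+LYC. All lay below 1 in 9 of 9 livers, and the lowest of each belonged to liver 2 of control or of HFD+LYC.

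In control livers the log2 difference between RNC and mRNA was -2.47 ± 0.66 (SE; edgeR adjusted p = 0.0563) for Cyp2d13, -2.55 ± 0.59 (SE; edgeR adjusted p = 0.0388) for Cyp2d37-ps and -2.85 ± 0.76 (SE; edgeR adjusted p = 0.0553) for Cyp2j9. The Cyp2d37-ps call was lost with the liver as a block, under which 0 members passed, and without any control library except mRNA replicate 1 (adjusted p = 0.258 and 0.0754 without mRNA replicate 2 or 3, and 0.105, 0.229 and 0.213 without RNC replicate 1, 2 or 3). Of all 12,872 genes the fit with the liver as a block called 0 higher and 2 lower, where the main fit called 2 and 272. Ratios above 1 in all 9 livers were found for Cyp2a12 (median 1.84), Cyp2c44 (1.69), Cyp2c67 (2.21), Cyp2c68 (1.91) and Cyp2e1 (2.18). Where 1 lies in these ratios is set by the TMM scaling of the 18 libraries. As a share of listed reads, Cyp2e1 was lower in RNC than in mRNA in control liver 1, HFD livers 1 and 3 and HFD+LYC liver 3. The widest gap was in HFD liver 3 (0.383% against 0.546%), and in the other livers the RNC share was higher.

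The change of this ratio with diet was tested in the same fit. HFD against control called no member (0% of all genes were called in either direction). In edgeR 0 members had an unadjusted p under 0.05 (0.155% of all genes), and DESeq2 called 1, Cyp2b10, and limma-voom 0. No member lay higher without overlap (2.86% of all genes) and 3 of 33 lay lower (9.09%, against 2.13%). HFD+LYC against HFD called 1 member higher and 1 lower, 3.03% each, against 3.42% and 13% of all genes, with 4 higher without overlap (12.1%, against 8.03%) and 3 lower (9.09%, against 24.6%). The ratio of Cyp2j6 was 1.37, 1.05 and 1.24 in control livers, 1.66, 1.12 and 1.34 with HFD and 0.474, 0.190 and 0.571 with HFD+LYC, and the HFD+LYC livers were the lowest. It fell by 1.92 ± 0.43 on the log2 scale (edgeR adjusted p = 0.00506), and the call held in every alternative run. The ratio of Cyp2d40 was 1.45, 1.57 and 1.41 in control livers, 1.10, 1.30 and 0.782 with HFD and 5.27, 2.43 and 2.27 with HFD+LYC, with a log2 change of 1.80 ± 0.58 (SE; edgeR adjusted p = 0.0433). The Cyp2d40 call remained in 4 of 13 fits that left out 1 library or liver, and with library-size scaling the change was 0.85 (adjusted p = 0.176). It was also lost with limma-voom and with only the compared groups fitted.

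Cyp2c54 had ratios of 1.82, 1.68 and 1.52 in control livers, 2.88, 1.22 and 2.03 with HFD and 0.746, 0.554 and 0.365 with HFD+LYC, below 1 in the HFD+LYC livers alone, with a log2 change of -1.97 ± 0.84 (SE; edgeR adjusted p = 0.124).

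A list of 37 genes that serve or regulate P450 enzymes, 36 of them tested, was counted beside the members. HFD against control called 1 higher in mRNA (2.78%, against 0.0158% of all genes), Dbp, a clock-controlled transcription factor that drives Cyp2a5, with 4.02 ± 0.46 (SE; edgeR adjusted p = 0.0122), and 0 in RNC. HFD+LYC against HFD called 5 higher (13.9%, against 1.99% of all genes) and 0 lower (0.916% of all genes) in mRNA, and 9 higher (25%, against 9.34%) and 6 lower (16.7%, against 17.4%) in RNC. HFD+LYC against control, with the same HFD+LYC livers, called 6 higher (16.7%, against 3.31%) and 0 lower (2.23% of all genes) in mRNA, and 10 higher (27.8%, against 9.23%) and 6 lower (16.7%, against 17.1%) in RNC. The shares called lower in RNC are near those of all genes. Por rose from 134 ± 54.0 to 633 ± 129.7 CPM in mRNA with HFD+LYC against HFD, a log2 fold change of 2.24 ± 0.38 (SE; edgeR adjusted p = 0.0161), and in RNC by 3.59 ± 0.28 (SE; edgeR adjusted p = 5.31e-05). Nr1i2, the receptor PXR, rose by 2.16 ± 0.40 (SE; edgeR adjusted p = 0.0211) in mRNA and 1.36 ± 0.27 (SE; edgeR adjusted p = 0.00529) in RNC. Cyb5a, the cytochrome b5 that passes electrons to P450 enzymes, fell in RNC, -1.65 ± 0.29 (SE; edgeR adjusted p = 0.00397), and so did Ephx2, the hydrolase of the epoxides, -1.30 ± 0.23 (SE; edgeR adjusted p = 0.00367). The clock-controlled genes Dbp (log2 fold change 2.50, edgeR adjusted p = 0.0125) and Tef (log2 fold change 1.95, edgeR adjusted p = 0.0413) also rose in mRNA with HFD+LYC against HFD. The sources used here do not give the hour of sampling, and its part in the P450 values was not tested.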

How the data were processed

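Poly(A) RNA of 9 livers was sequenced as total mRNA and as ribosome-bound RNC RNA, which gave 18 libraries, 3 per diet and kind, on an Illumina platform with the VAHTS mRNA-seq kit, per the labels. The authors deposited a whole-number read count, an RPKM value and a longest-transcript length per gene, per the file headers. Reads were mapped to RefSeq RNA sequences, per the series' design text, and bcl2fastq and mm10 are named in the submitters' processing notes. Nothing in the sources used here names the aligner, the multi-mapping rule or the strand setting. RPKM values the authors deposited served only for the order of levels.

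Counts were fitted with edgeR 4.0.16 (R 4.3.3) by the robust quasi-likelihood model after filterByExpr (minimum count 10, minimum total 15) and TMM scaling, for 9 mRNA libraries (12,664 genes, 6 residual degrees of freedom), 9 RNC libraries (11,660, 6) and all 18 (12,872, 12; diet, kind and their interaction). P-values are two-sided and adjusted over all tested genes. Errors of fold changes are standard errors on the log2 scale. Ratios of RNC to mRNA level use the 18-library CPM of the same liver. A group with 0 reads was set to 3 reads over the group for a bound, and groups with 1 to 3 reads got exact 95% intervals of the read ratio; both reflect counting error alone, and reads lack molecular identifiers, so they are not independent molecules. Alternatives were DESeq2 1.42.0, limma-voom 3.58.1, RLE scaling, no filter, only the groups compared, the replicate block and leaving out each library, and, chosen after seeing the data, library-size scaling and leaving out HFD liver 2. The code was tested on simulated data. No pair of replicates agreed within counting noise (chi-square per degree of freedom 47.8 to 424).

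The labels call the 3 samples of a diet biological replicates. Deposited file names give the mRNA and RNC library of a liver 1 animal code, so these pair by name. Their residual r was -0.08 to 0.74, over 0.1 in 4 of 9 pairs. Between mRNA and RNC libraries of different livers it was -0.70 to 0.53, over 0.1 in 5 of 18 pairs. Residuals of same-numbered HFD and HFD+LYC mRNA libraries correlated in 3 of 3 pairs (0.187 to 0.600), as did control and HFD RNC libraries (0.125 to 0.459); the labels give no reason for a link between diets. Members were named by rule: those called in any comparison, the highest per length of each subfamily, the 6 largest changes without overlap in each comparison, and members known for a pattern; others named were chosen after their values were seen. Members, lists and tests were chosen with earlier results of these data known. Promoter windows came from RefSeq on GRCm38.p6, and 39 members had one. Coding sequences came from GENCODE transcripts matched to the deposited RefSeq identifiers, the longest per gene.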

Additional observations from a re-analysis of the deposited data

Results flagged for a closer look

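The change of Cyp2j6 with HFD+LYC against HFD differed between RNC and mRNA libraries, with a log2 difference of -1.92 ± 0.43 (SE; interaction term in edgeR, adjusted p = 0.00506), and the HFD+LYC RNC to mRNA ratio was below that of every HFD liver in 3 of 3 livers. The change of Cyp2d40 differed the other way, by 1.80 ± 0.58 (adjusted p = 0.0433), with the HFD+LYC ratio above every HFD liver in 3 of 3 livers. Groups held 3 livers, too few to look for single livers that stand apart by a formal rule.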

How the results depend on the processing

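The 45 member results rerun were those called or among the largest changes without overlap, so a reversal was unlikely from the start. For them 595 alternative values were computed: 512 kept direction and side of the threshold, 52 lost the call, 31 gained one and 0 reversed. Among all tested members, the sign differed between the 3 scalings for 11 of 31 in RNC of HFD+LYC against HFD. It differed for 7 of 31 in RNC of HFD+LYC against control and 6 of 31 in RNC of HFD against control. For RNC against mRNA in control livers it did so for 10 of 33, and in each mRNA comparison for 2 of 32. For HFD+LYC against HFD in mRNA the main count of 0 called members became 5 with DESeq2, 1 with limma-voom, 2 without the filter and 6 with the replicate block, and 0 to 1 when 1 library was left out. Calls over all genes were 252 higher and 116 lower in the main fit. With the first alternatives, in the order given, they became 871 and 620, 238 and 85, 347 and 185, and 852 and 605. For HFD+LYC against control in mRNA, 3 became 6 with DESeq2 and 8 with the replicate block, whose numbers no label links between diets. All-gene calls there went from 419 higher and 282 lower to 927 and 701 with DESeq2 and 812 and 613 with the block. For HFD against control in RNC, 0 became 2 with DESeq2 and 2 when only the groups compared were fitted. These fits called 28 genes higher and 5 lower, and 20 and 12, over all genes, against 1 and 0 in the main fit. For HFD+LYC against HFD in RNC, 7 became 3 with only the groups compared, and 4 to 10 with 1 library left out. The fit of the compared groups called 685 genes higher and 1105 lower of 11,096, where the main fit called 1089 and 2031. For RNC against mRNA in control livers, 1 became 4 with DESeq2, 3 with RLE scaling, 3 without the filter, 0 with the replicate block, 4 with library-size scaling and 8 with only the groups compared, and 0 to 3 with 1 library left out, the 3 without control mRNA replicate 1. The main fit called 2 genes higher and 272 lower over all genes. DESeq2 called 492 and 1689, RLE scaling 14 and 511, and the fit without the filter 3 and 283. The block called 0 and 2, and library-size scaling 0 and 2024. With only the groups compared, which tested 29 members and 11,746 genes, 1385 genes were called higher and 2497 lower. Without control mRNA replicate 1 they were 143 and 532. For the ratio, HFD against control gave 1 instead of 0 with DESeq2, and HFD+LYC against HFD gave 5 instead of 2 with DESeq2, 1 with limma-voom, 4 with library-size scaling and 1 with only the groups compared, and 1 to 4 with a library or HFD liver 2 left out, the 4 without HFD+LYC RNC replicate 3. For HFD against control DESeq2 called 0 genes higher and 1 lower over all genes. HFD+LYC against HFD called 440 genes higher and 1676 lower in the main fit and 853 and 1927 with DESeq2. The calls were 423 and 2168 with limma-voom, 151 and 2327 with library-size scaling and 246 and 1179 with only the groups compared. Without HFD+LYC RNC replicate 3 they were 541 and 2310. The replicate block changed no other count by more than 1.5 times. Causes of these shifts were not tested, beyond the fewer samples in the fits that leave some out. A single library could show a member down to 3 reads, 0.19 to 0.62 CPM.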

Other observations

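Cyp2d13 and Cyp2e1 ran in opposite order within the control and within the HFD mRNA libraries. Cyp2d13 had 319.9, 1153 and 824 CPM in control and 938, 909.8 and 286 in HFD livers, where Cyp2e1 had 4414, 1399.8 and 3610.2 and 2901, 3034 and 6259 CPM. Cyp2j9 followed Cyp2d13 with 44.0, 125 and 53.1 and 82.5, 109.6 and 21.8 CPM, except that HFD liver 2 was its highest. The HFD+LYC livers did not keep this order, with 1265, 852 and 906 CPM of Cyp2d13 and 1728, 1688 and 4004 CPM of Cyp2e1, where liver 2 was the lowest in both. The pattern was noticed in the data and has no test.

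Of the other P450 families counted for comparison, 4 of 9 Cyp3a genes were tested. Cyp3a enzymes are PXR targets that oxidise steroids and drugs. With HFD+LYC against control, 2 of 4 fell in mRNA (50%, against 2.23% of all genes) and 3 of 4 in RNC (75%, against 17.1%), with median log2 fold changes of -2.23 and -2.22, and against HFD 1 (25%, against 0.916%) and 2 (50%, against 17.4%) fell, with medians of -1.04 and -1.47. Of the 6 tested Cyp4a genes, fatty acid hydroxylases and PPARA targets, none was called in mRNA by edgeR, with 2 at an unadjusted p under 0.05 for HFD against control and 3 for HFD+LYC against control, and 1 rose in RNC with HFD+LYC against control (16.7%, against 9.23% of all genes). None of the 3 Cyp1 genes was called by edgeR in any comparison, with 0 at an unadjusted p under 0.05.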
